A study of Homo sapiens with 28 samples.

Results

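The metallothioneins examined here are the 9 genes MT1A, MT1E, MT1F, MT1G, MT1H, MT1M, MT1X, MT2A and MT3, taken by their symbols from the 19662 genes that both RPKM tables list. All 9 symbols were found in both tables. RPKM counts reads relative to gene length and to all mapped reads of a library, and the values were not scaled further. RNA-Seq was available for 16 libraries of 2 prostate cancer cell lines, with 2 libraries in each of 8 groups. The question put to these genes was how they respond to low oxygen, and whether that response differs when ONECUT2, a transcription factor of the onecut homeodomain family, is reduced or added.

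PC3 cells, an androgen-independent line, were transfected with siCtrl, a control siRNA, or with siOC2, which targets ONECUT2, and were kept in normoxia or in hypoxia at 0.2% oxygen. The siOC2 libraries of each group came from different siRNAs, siRNA1 in number 1 and siRNA2 in number 2. Differences between the siRNAs therefore count as replicate spread in those groups. The fit shares its estimate of the spread over the 4 groups of a line, so these differences also enter the siCtrl comparisons. LNCaP cells, an androgen-responsive line, carried an empty vector or a vector for Flag-tagged ONECUT2 (Flag-OC2) and were kept in normoxia or at the same low oxygen. The study's methods name vectors with a CMV promoter. How long the RNA-Seq cultures were kept in hypoxia is not given in the sources used here. The labels do not say whether the 2 libraries of a group came from separate cultures, so each p measures only the spread between these libraries. These are bulk samples, in which fewer cells with a transcript and less of it per cell cannot be told apart.

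Metallothioneins are small cysteine-rich proteins that bind zinc, copper and cadmium through their thiol groups, buffer free zinc and react with oxidants. Their genes are switched on by the zinc-sensing factor MTF1, which binds metal response elements close to the transcription start, and several of them also answer to glucocorticoids. MT2A and the MT1 genes are used in many tissues, whereas MT3 is best known from the brain. In human cells the MT1 genes arose by repeated duplication, and their transcripts remain alike.

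On GRCh37 the 9 genes lie on chromosome 16 within 95123 bases, from position 56622986 to 56718108. Of them, 8 are on the plus strand, and MT1G is on the minus strand. The 250 bases before the annotated start of MT2A and MT1X, the highest members in both lines, are shown, since metal control acts there. Capitals mark matches to the core of the metal response element, TGCACNC or TGCGCNC, on either strand. The windows are chr16:56642246-56642495 and chr16:56716132-56716381, both on the plus strand.
MT2A: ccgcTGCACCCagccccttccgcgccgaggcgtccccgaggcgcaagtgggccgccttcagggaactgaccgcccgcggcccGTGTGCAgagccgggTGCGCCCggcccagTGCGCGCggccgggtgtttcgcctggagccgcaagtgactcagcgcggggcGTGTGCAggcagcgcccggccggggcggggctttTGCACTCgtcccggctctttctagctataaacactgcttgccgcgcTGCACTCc
MT1X: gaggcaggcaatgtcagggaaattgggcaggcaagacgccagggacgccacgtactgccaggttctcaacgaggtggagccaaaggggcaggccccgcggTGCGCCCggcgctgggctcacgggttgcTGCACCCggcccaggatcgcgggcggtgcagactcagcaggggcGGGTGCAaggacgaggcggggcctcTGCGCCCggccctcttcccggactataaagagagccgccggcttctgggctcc

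The window of MT2A held 7 matches and that of MT1X 4. Among the members with low values, MT1H had 8 matches, MT3 had 5, MT1E and MT1M had 3 each, and MT1A had 1. Of 19881 windows of 250 bases before protein-coding genes, 30.9% held at least 1 such match and 2.18% held 3 or more. The bases G and C made up 73.2% of the MT2A window and 70% of that of MT1X. The 19881 windows were not matched for this content, which bears on how often such a core occurs. The short core of the hypoxia response element, ACGTG or GCGTG on either strand, had 4 matches at MT3, 1 at MT1X, 1 at MT2A and 0 at MT1A, MT1E, MT1H and MT1M. It occurs in 51.4% of the 19881 windows. A match is a stretch of letters and not a measured binding site.

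The transcripts were compared because reads of close copies are hard to assign. In MT1X, 51.0% of all 50-base stretches also occur in the transcripts of another gene, with 33.0% of the stretches found in the annotated gene ENSG00000259827, 13.2% in MT1G and 10.7% in the pseudogene MT1XP1. The share was 20.4% in MT1H, mostly with MT1HL1 at 17.2%, and 19.9% in MT1G. It was 14.6% in MT1M, 11.1% in MT2A, 10.3% in MT1E, 6.12% in MT1F and 5.76% in MT1A. MT3 shared no such stretch. Counting the listed members alone, the share was 19.7% in MT1G, 16.6% in MT1X and 3.16% in MT1H. Whether ENSG00000259827 overlaps MT1X in position was not checked. How reads with several matches were counted is not given in the sources used here, so the values of single members, above all MT1X, MT1G and MT1H, carry that uncertainty.

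Depth was compared by the smallest steps between low values. It ranged from 0.303 to 1 of the deepest library in PC3 cells and from 0.548 to 1 in LNCaP cells. In hypoxia CA9, a carbonic anhydrase induced by HIF, was called higher in siCtrl (log2 fold change 6.07), siOC2 (4.89), empty vector (2.90) and Flag-OC2 cells (4.42). In LNCaP hypoxia CA9 averaged 3.45 RPKM with Flag-OC2 and 4.47 RPKM with empty vector. In normoxia it averaged 0.0854 RPKM with Flag-OC2, under the 0.1 RPKM added in the fit, and 0.502 RPKM with empty vector. There it was called lower with Flag-OC2 (-1.87), and its interaction was called higher (1.53). In hypoxia its difference between the vectors was not called (-0.34). ONECUT2 was lower with siOC2 in normoxia (log2 fold change -2.18, limma adjusted p = 0.332, called by fold and unadjusted P). In hypoxia its difference was -1.39 and was not called. ONECUT2 averaged 1.47 RPKM in siCtrl normoxia, 0.240 in siOC2 normoxia, 0.599 in siCtrl hypoxia and 0.170 in siOC2 hypoxia. It reached 1 RPKM only in siCtrl normoxia, so it was tested only through the group where it was high. At levels this near the 0.1 RPKM added in the fit, it is a weak check of the knockdown. ONECUT2 has no value in the 4 Flag-OC2 libraries and was left out of that fit, so its overexpression was not checked here. Most markers separated the lines. KLK3 was at least 1842 RPKM in LNCaP cells and listed at 0 in all 8 PC3 libraries, and KLK2 was at least 423.4 RPKM and at most 0.0668 RPKM. CD44 (at least 171.3 RPKM), CAV1 (at least 15.9 RPKM) and AXL (at least 21.1 RPKM) were under 1 RPKM in LNCaP cells. VIM, the fourth PC3 marker, did not separate the lines, at 30.2 to 352.8 RPKM in PC3 and 23.6 to 58.2 RPKM in LNCaP cells.

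MT2A was the highest metallothionein in every library of both lines, with MT1X next. In PC3 cells MT2A was 811.7 to 3701 RPKM and made up 93.1% to 97.6% of the summed RPKM of the 9 genes. In LNCaP cells it was 126.9 to 276.8 RPKM, or 80.1% to 86.6% of the sum. The tables of the lines were made separately, so these levels stand side by side with no test. MT1X was 29.4 to 66.0 RPKM in PC3 and 19.6 to 38.9 RPKM in LNCaP cells. MT1F and MT1G were lower and changed places: MT1F was above MT1G in each PC3 library, although their ranges overlapped in siCtrl hypoxia. In LNCaP cells in normoxia MT1G was above MT1F in each library, and in hypoxia their ranges overlapped with either vector.

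**Figure D1:**
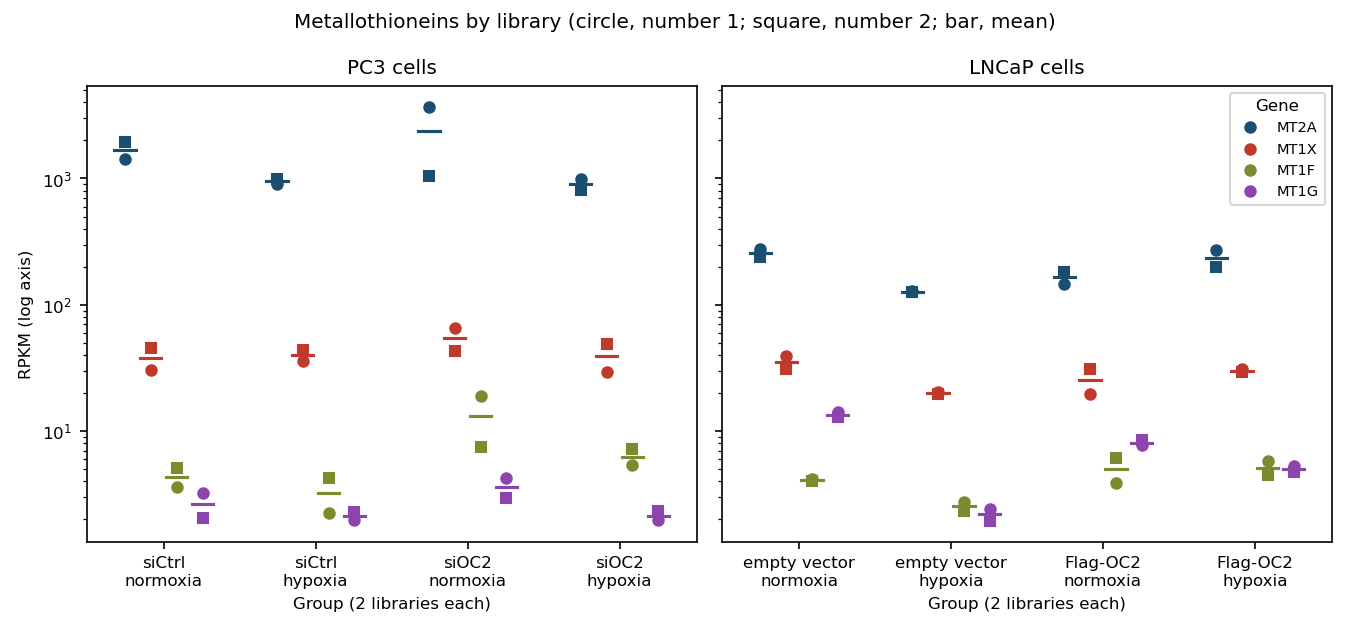
RPKM of MT2A, MT1X, MT1F and MT1G in each library of PC3 cells (left) and LNCaP cells (right), on a log axis; circles are libraries number 1 (siRNA1 in the siOC2 groups), squares number 2 (siRNA2 there) and short bars the mean of the 2. In LNCaP cells with empty vector every gene sits lower in hypoxia than in normoxia, and the siOC2 normoxia library of siRNA1 holds the highest MT2A value, 3701 RPKM.

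In LNCaP cells with empty vector all 4 tested metallothioneins were lower in both hypoxia libraries than in both normoxia libraries, which also held for 32.4% of all tested genes. With Flag-OC2 it held for MT1G alone, and for 26.1% of all tested genes. A gene was called where its fold change was over 2 and its unadjusted P under 0.05 in the fit of all tested genes with limma on log2(RPKM + 0.1). By this rule 2 of the 4 tested metallothioneins, MT1G and MT2A, were called lower in hypoxia with empty vector and 0 were called higher. Among all 12283 genes tested, 2.34% were called lower and 5.6% higher. All 4 differences were negative, and their median was -0.90 on the log2 scale, where that of all genes was 0.02.

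MT1G, one of the metal-inducible MT1 genes, moved furthest. It was 14.2 and 12.9 RPKM in normoxia and 2.43 and 1.94 RPKM in hypoxia with empty vector. The groups lay far apart, and MT1G was 5.98-fold lower in hypoxia (log2 fold change -2.58, SE 0.15, limma adjusted p = 3.84e-05). With Flag-OC2 it was 7.70 and 8.50 RPKM in normoxia and 5.30 and 4.74 RPKM in hypoxia. These groups did not overlap either, but the difference was smaller (log2 fold change -0.68, SE 0.15, limma adjusted p = 0.0143) and under 2-fold.

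MT2A, the most abundant member, was 276.8 and 237.02 RPKM in normoxia and 127.6 and 126.9 RPKM in hypoxia with empty vector. Both hypoxia libraries lay below both normoxia libraries, a 2.01-fold lower level (log2 fold change -1.01, SE 0.17, limma adjusted p = 0.00328), close to the limit of 2-fold. Without empty vector normoxia number 1 its log2 fold change was -0.90 and was not called. With Flag-OC2 it was 147.4 and 183.2 RPKM in normoxia and 272.8 and 198.5 RPKM in hypoxia. There the hypoxia libraries were the higher ones, with a log2 fold change of 0.50 (SE 0.17, limma adjusted p = 0.0568) that was not called. Without 1 library at a time it ran from 0.27 to 0.73.

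MT1X was 38.9 and 31.1 RPKM in normoxia and 20.4 and 19.8 RPKM in hypoxia with empty vector. Its groups did not overlap, and the log2 fold change of -0.79 (SE 0.20, limma adjusted p = 0.0190) was under 2-fold. With Flag-OC2 MT1X was 19.6 and 30.9 RPKM in normoxia and 30.8 and 29.4 RPKM in hypoxia, which overlap (log2 fold change 0.29, SE 0.20, limma adjusted p = 0.316).

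MT1F was 4.17 and 4.01 RPKM in normoxia and 2.74 and 2.34 RPKM in hypoxia with empty vector (log2 fold change -0.67, SE 0.23, limma adjusted p = 0.0558). The groups did not overlap, but the difference was under 2-fold and missed an adjusted p of 0.05. With Flag-OC2 MT1F was 3.89 and 6.15 RPKM in normoxia and 5.77 and 4.48 RPKM in hypoxia, which overlap (log2 fold change 0.05, SE 0.23). In all, 0 of the 4 genes were called in hypoxia with Flag-OC2, against 5.48% of all genes called higher and 1.36% lower.

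The difference between the 2 hypoxia responses was tested as the interaction of hypoxia and Flag-OC2. It was called higher, that is more positive with Flag-OC2, for 3 of the 4 metallothioneins, against 2.34% of all genes called higher and 1.35% lower. The median interaction of the 4 genes was 1.30 on the log2 scale, against 0.06 over all genes. MT1G had the largest of the 4 (log2 difference 1.90, SE 0.22, limma adjusted p = 0.0176). MT2A followed (1.51, SE 0.24, limma adjusted p = 0.0560). MT1X was also called (1.08, SE 0.28, limma adjusted p = 0.140), and MT1F was not (0.72, SE 0.33, limma adjusted p = 0.309). The call of MT1X was lost without empty vector normoxia number 1 (0.92) and without Flag-OC2 normoxia number 1 (0.75). At an adjusted p under 0.05 the interaction held for MT1G alone, among 30 of all 12283 genes.

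**Figure D2:**
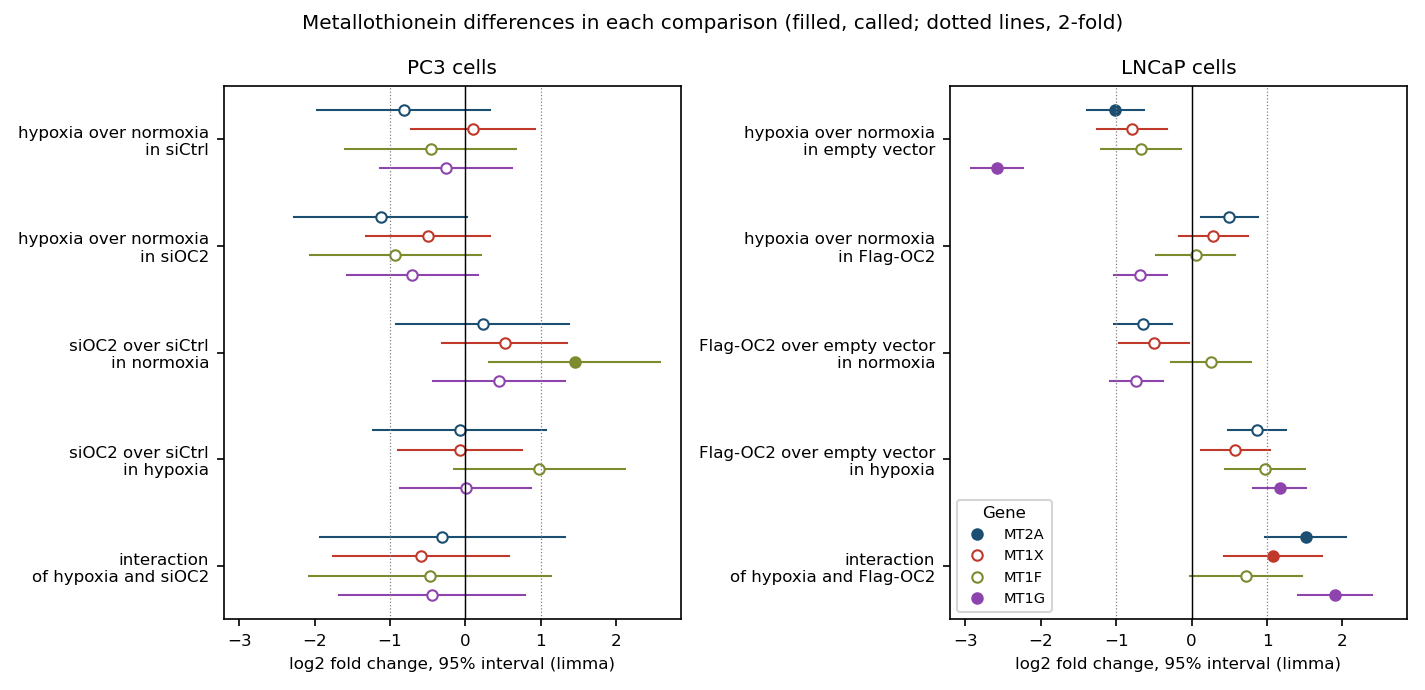
Log2 fold change (points) with 95% interval (lines) of MT2A, MT1X, MT1F and MT1G in the 5 comparisons of PC3 cells (left) and of LNCaP cells (right), from limma on log2(RPKM + 0.1); filled points were called and dotted lines mark 2-fold. In LNCaP cells the empty vector responses lie between -2.58 and -0.67, and the interactions between 0.72 and 1.90, whereas the PC3 intervals are wide and all but that of MT1F with siOC2 in normoxia cross 0.

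Flag-OC2 was compared with empty vector at each oxygen level. These comparisons use the same libraries as the hypoxia responses above, so they describe the same values from another side. In normoxia 0 of 4 metallothioneins were called, against 2.81% of all genes called higher and 0.48% lower. MT1G was lower with Flag-OC2 (log2 fold change -0.73, SE 0.15, limma adjusted p = 0.0341, under 2-fold), with both Flag-OC2 libraries below both empty vector libraries. The log2 fold change of MT2A was -0.64 (limma adjusted p = 0.0662), that of MT1X -0.50 (limma adjusted p = 0.179) and that of MT1F 0.25 (limma adjusted p = 0.537).

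In hypoxia all 4 genes were above both empty vector libraries in both Flag-OC2 libraries, as were 31.6% of all tested genes. For MT1G, MT2A and MT1X the sign was opposite to that in normoxia, whereas MT1F was positive at both oxygen levels. MT1G was called higher (log2 fold change 1.17, or 2.25-fold, SE 0.15, limma adjusted p = 0.00362). It was the only one of the 4 called, against 3.7% of all genes called higher and 0.773% lower. MT1F (log2 fold change 0.98, limma adjusted p = 0.0325) and MT2A (0.87, limma adjusted p = 0.0159) passed the adjusted limit but stayed under 2-fold. MT1X was at 0.58 (limma adjusted p = 0.0997). With a pseudocount of 1 the log2 fold change of MT1G was 0.92 and none of the 4 was called, and with upper-quartile scaling MT1F was called too (1.03).

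The summed RPKM of the 9 genes gave the same picture in one number per library. It was 334.1 and 285.7 in empty vector normoxia and 153.2 and 150.9 in empty vector hypoxia. It was 178.5 and 228.8 in Flag-OC2 normoxia and 314.9 and 237.1 in Flag-OC2 hypoxia. Hypoxia thus went with a sum that was 2.04-fold lower with empty vector and 1.36-fold higher with Flag-OC2, and the groups did not overlap in either case. On the log2 scale these differences were -1.03 and 0.44, beside replicate SDs of 0.11 and 0.27, so the higher sum was close to the spread. Without MT2A the second ratio was 1.05, so the higher sum in Flag-OC2 hypoxia lay in MT2A.

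**Figure D3:**
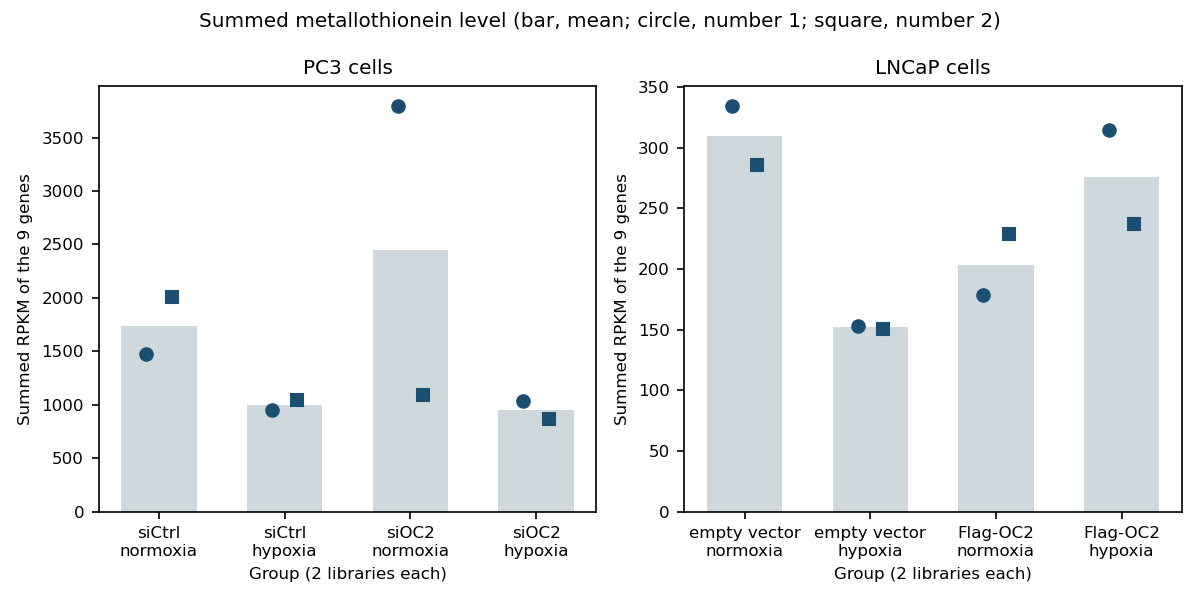
Summed RPKM of the 9 metallothioneins per library (circles number 1, squares number 2) with the group mean (bars, from 0) in PC3 cells (left) and LNCaP cells (right); the axes differ in scale. In LNCaP cells the empty vector hypoxia libraries are the lowest, at 153.2 and 150.9, and in PC3 cells the siOC2 normoxia libraries of siRNA1 and siRNA2 lie at 3792 and 1094.

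In PC3 cells the libraries of a group lay further apart, and 0 of the 4 tested metallothioneins were called in hypoxia with siCtrl or with siOC2. With siCtrl 2.23% of all 12214 genes tested were called higher and 1.63% lower, and with siOC2 1.11% higher and 2.35% lower. MT2A was 1433 and 1957 RPKM in siCtrl normoxia and 909.03 and 990.5 RPKM in siCtrl hypoxia. The hypoxia libraries were the lower ones without overlap, with a log2 fold change of -0.82 (SE 0.50, 95% interval -1.97 to 0.33, limma adjusted p = 0.808). That SE is shared with the siOC2 groups and so includes the spread between the siRNAs.

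With siOC2, MT2A was 3701 RPKM for siRNA1 and 1039 for siRNA2 in normoxia, and 996.5 and 811.7 RPKM in hypoxia. Within each siRNA the hypoxia library was the lower one, by very different amounts (log2 fold change -1.12, SE 0.50, limma adjusted p = 0.719, unadjusted P = 0.0535). In a fit with the replicate number as a block, which in the siOC2 groups is the siRNA, the same difference was called at an unadjusted P of 0.0268 by limma. Without the siRNA2 library of siOC2 normoxia the log2 fold change was -2.04, and without that of siRNA1 it was -0.21.

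The other 3 genes differed less between oxygen levels. MT1X was 30.6 and 45.5 RPKM in siCtrl normoxia against 36.1 and 44.2 RPKM in siCtrl hypoxia, with overlap (log2 fold change 0.10, SE 0.36). With siOC2 it was 66.0 and 43.3 RPKM against 29.4 and 48.9 RPKM, also with overlap (-0.49, SE 0.36). MT1G was 3.23 and 2.05 RPKM in siCtrl normoxia and 1.98 and 2.30 RPKM in siCtrl hypoxia, again overlapping (-0.26, SE 0.38).

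For MT1G the siOC2 groups did not overlap, at 4.24 and 2.96 RPKM in normoxia and 1.97 and 2.32 RPKM in hypoxia (log2 fold change -0.70, SE 0.38, limma adjusted p = 0.729). MT1F was 3.62 and 5.11 RPKM in siCtrl normoxia and 2.25 and 4.25 RPKM in siCtrl hypoxia, which overlap (-0.46, SE 0.49), and its difference with siOC2 was -0.93 (SE 0.49). The interaction of hypoxia and siOC2 was called for 0 of the 4 genes, against 0.246% of all genes called higher and 0.696% lower, and its values ran from -0.59 (MT1X) to -0.31 (MT2A). The interval for MT2A, -1.93 to 1.32 on the log2 scale, was wide enough to hold sizable differences of either sign.

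Knockdown of ONECUT2 went with 1 call. MT1F was 18.8 RPKM for siRNA1 and 7.54 for siRNA2 in siOC2 normoxia, above the 3.62 and 5.11 RPKM of siCtrl. It was called higher (log2 fold change 1.45, SE 0.49, unadjusted P = 0.0182 and adjusted p = 0.416 by limma), as the single call among the 4 genes, against 3.62% of all genes called higher and 1.59% lower. Both siRNAs lay above both controls, but without the siRNA1 library the log2 fold change was 0.79 and without siCtrl normoxia number 1 it was 1.20, and neither was called. In hypoxia MT1F was 5.36 and 7.17 RPKM with siOC2 and again above both siCtrl libraries (log2 fold change 0.98, SE 0.49, limma adjusted p = 0.472), without a call.

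The siRNAs parted most at MT2A. In normoxia siRNA1 gave 3701 RPKM, above both siCtrl libraries, and siRNA2 gave 1039 RPKM, below both, so the mean difference of 0.23 on the log2 scale (SE 0.50, 95% interval -0.92 to 1.37) describes neither. The remaining log2 fold changes with siOC2 in normoxia were 0.52 for MT1X and 0.45 for MT1G, and neither was called. In hypoxia 0 of 4 genes were called, against 3.55% of all genes called higher and 3.95% lower, and MT2A (-0.08), MT1X (-0.07) and MT1G (0.00) were near 0, each with an SE of at least 0.36. The summed RPKM was 1472 and 2011 in siCtrl normoxia, 3792 and 1094 in siOC2 normoxia, 949.9 and 1042 in siCtrl hypoxia and 1034 and 871.6 in siOC2 hypoxia. Each of the 4 hypoxia sums lay below each of the 4 normoxia sums.

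The other 5 genes did not reach 1 RPKM in 2 libraries of either line and were not tested. In PC3 cells MT1M was 0.855 and 0.675 RPKM in siCtrl normoxia, 1.16 and 0.407 in siOC2 normoxia, and 0.123 and 0.539 in siCtrl hypoxia. In siOC2 hypoxia it was listed at 0 for siRNA1 and at 0.676 RPKM for siRNA2. Only the siCtrl groups did not overlap. MT1A was 0.310 and 0.129 RPKM in siCtrl normoxia, 0.129 and 0.148 in siOC2 normoxia, 0 and 0.169 in siCtrl hypoxia, and 0.558 and 0 in siOC2 hypoxia.

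MT3, the form known from the brain, was 0 and 0.102 RPKM in siCtrl normoxia, 0.411 and 0.261 in siOC2 normoxia, 0.354 and 0.300 in siCtrl hypoxia, and 0 and 0.781 in siOC2 hypoxia. MT1H was listed at 0 in 6 PC3 libraries and at 0.0160 and 0.115 RPKM in siOC2 normoxia. MT1E was listed at 0 in 7 PC3 libraries and at 0.0103 RPKM in siOC2 normoxia for siRNA1. These levels are too low to compare.

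In LNCaP cells MT1A, MT1H and MT1M were listed at 0 in all 8 libraries. MT1E was listed at 0.0105 RPKM in empty vector normoxia number 2 and at 0 in the other 7. MT3 was 0.695 RPKM in empty vector normoxia number 2, 0.0987 RPKM in Flag-OC2 normoxia number 2 and 0.262 RPKM in Flag-OC2 hypoxia number 1, and it was listed at 0 in the other 5. Of the further metallothionein entries in the tables, MT1B was listed at 0 to 0.292 RPKM, MT4 at 0 to 0.231 RPKM and MT1HL1 at 0 to 0.247 RPKM over both lines.

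Across the 8 libraries of a line the tested members followed each other. In LNCaP cells MT1X and MT2A were closest (Pearson r 0.92 of log2 values), and the 6 pairs ranged from 0.62 upward. In PC3 cells the pairs ranged from 0.50 to 0.75. There every tested member had its highest value in the same library, siOC2 normoxia of siRNA1, and the correlations without it were not computed. These values describe 8 libraries that share 4 groups, and reads shared between the genes can add to them. The genes whose log2 level was most like the log2 summed metallothionein level over 8 libraries were PNPLA7 (r 0.971), C17orf75 (0.960) and PPARGC1A (0.957) in LNCaP cells, and TRMT2A (0.978) and PEF1 (0.971) in PC3 cells. They were picked as the highest of 12279 genes in LNCaP and 12210 in PC3 cells, so the choice itself favours a high r.

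Zinc and copper genes were compared as the family's usual company. MTF1, the zinc-sensing activator of metallothionein genes, was 5.12 to 7.46 RPKM in LNCaP and 2.41 to 6.16 RPKM in PC3 cells and was called in 0 of the 10 comparisons. In the empty vector hypoxia response its log2 fold change was 0.06 (SE 0.17), and its interaction was -0.14 (SE 0.24). SLC30A1, a zinc exporter that MTF1 also switches on, was 5.83 and 4.94 RPKM in normoxia and 5.55 and 5.94 RPKM in hypoxia with empty vector, with overlap. With Flag-OC2 it was 8.61 and 9.39 RPKM in normoxia and 9.25 and 8.78 RPKM in hypoxia. SLC30A1 was thus above empty vector with Flag-OC2 at both oxygen levels (log2 fold change 0.73, limma adjusted p = 0.0208, and 0.64, limma adjusted p = 0.0206), each under 2-fold. Its interaction was -0.09 (SE 0.19).

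Of 10 zinc exporters 7 were tested in LNCaP cells. SLC30A3 was the 1 called higher with Flag-OC2 in normoxia and in hypoxia, against 2.81% and 3.7% of all genes. Its log2 fold changes were 1.57 (limma adjusted p = 0.0740) and 1.90 (limma adjusted p = 0.0278). SLC30A3 was also called higher in hypoxia with Flag-OC2 (1.07, against 5.48% of all genes), at 0.456 and 0.589 RPKM in normoxia against 1.04 and 1.39 RPKM. With empty vector it averaged 0.118 RPKM in normoxia and 0.262 RPKM in hypoxia, near the 0.1 RPKM added in the fit. It reached 1 RPKM only in Flag-OC2 hypoxia, so it was tested only through the group where it was high. Of 14 importers 11 were tested, and 1 was called, SLC39A8, higher in hypoxia with empty vector (1.16, limma adjusted p = 0.00140), against 5.6% of all genes. The 9 copper genes had no call in LNCaP cells. In PC3 cells SLC39A10 was called lower with siOC2 in normoxia (-1.08) and in hypoxia (-1.28), SLC39A11 lower in hypoxia (-1.60) and CCS, the copper chaperone of SOD1, lower in siOC2 hypoxia against normoxia (-1.07), each with an adjusted p of at least 0.0846 by limma. These were 1 of 11 importers in normoxia and 2 of 11 in hypoxia, against 1.59% and 3.95% of all genes called lower. CCS was 1 of 8 copper genes, against 2.35%. The 5 zinc exporters tested in PC3 cells had no call. Over the 10 comparisons 0.246% to 5.6% of all genes were called in each direction, so 0 or 1 call in such short lists is near those shares.

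Most of the glucocorticoid-induced genes were higher in hypoxia in LNCaP cells with empty vector. There 6 of the 8 were called higher and 0 lower, against 5.6% and 2.34% of all genes, and the median was 1.17 on the log2 scale, against 0.02. PER1, a clock gene, stood at 2.05 (limma adjusted p = 8.93e-05), ERRFI1, a feedback inhibitor of EGFR, at 1.26 (1.41e-04), SGK1, a kinase, at 1.25 (0.00797) and TSC22D3, an anti-inflammatory leucine zipper protein, at 1.18 (3.13e-04). With Flag-OC2 2 of 8 were called higher, against 5.48% of all genes, and the median was 0.55, against 0.09. The interaction was called lower for 2 of 8, against 1.35% of all genes: SGK1 (-1.58, limma adjusted p = 0.109) and PER1 (-1.36, limma adjusted p = 0.0575). The glucocorticoid receptor gene NR3C1 was only 0.0823 to 0.211 RPKM in LNCaP cells and was not tested there. Several of these genes, FKBP5 among them, are known to answer to androgen as well, and KLK2, an androgen-responsive marker of the line, was called higher in empty vector hypoxia (1.16), as 1 of 6 LNCaP markers. VIM, the single PC3 marker tested in LNCaP cells, was called higher in hypoxia with Flag-OC2 (1.05). The part of either hormone pathway in the metallothionein levels was not tested.

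**Figure D4:**
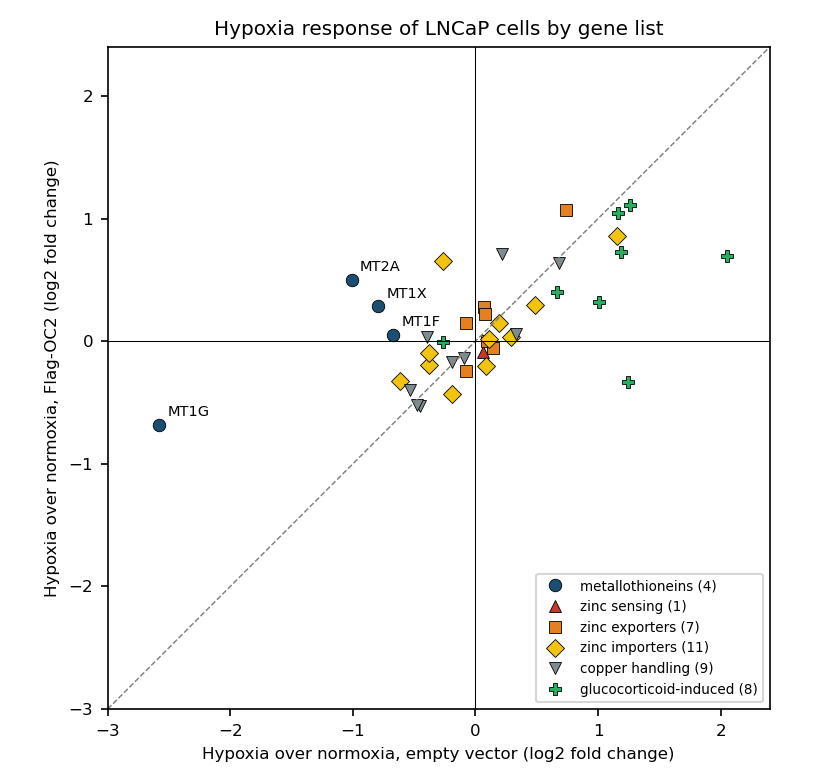
Log2 fold change of hypoxia over normoxia with empty vector (horizontal) and with Flag-OC2 (vertical) in LNCaP cells, for the tested genes of each list; the dashed line marks equal responses. The 4 metallothioneins lie left of 0 and above the line, and PER1 and SGK1, the glucocorticoid-induced genes with a called interaction, lie right of 0 and below it.

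In PC3 cells NR3C1 was 4.55 to 10.4 RPKM and was called in 0 of 5 comparisons. Of the 7 glucocorticoid-induced genes tested there, 1 was called higher in hypoxia with siCtrl (ERRFI1, 2.61, limma adjusted p = 0.0152), against 2.23% of all genes. With siOC2, ERRFI1 (1.57) was called higher and FKBP5 (-1.03) lower in hypoxia, against 1.11% and 2.35% of all genes. With siOC2 against siCtrl, SGK1 (1.85) and ERRFI1 (1.46) were called higher in normoxia and SGK1 (1.22) and PER1 (1.13) in hypoxia, all with an adjusted p of at least 0.192 by limma. Of all genes 3.62% and 3.55% were called higher with siOC2 in normoxia and in hypoxia. The interaction was called lower for ERRFI1 (-1.05), against 0.696% of all genes. With siOC2 in hypoxia 2 of 4 PC3 markers were called lower, VIM (-2.26) and CD44 (-1.03), against 3.95% of all genes. The siRNAs lay far apart there. VIM averaged 97.8 RPKM (SD 95.6), against 340.3 (SD 17.7) with siCtrl. CD44 averaged 330 RPKM (SD 224), against 594 (SD 95.3). These calls stood beside metallothionein values that were not called, and the part of the markers in those values was not tested.

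The neighbours of the family on chromosome 16 were compared as well. Of 8 flanking genes 7 were tested in each line. In LNCaP cells 0 were called in hypoxia with either vector, in the interaction or with Flag-OC2 in hypoxia. There 0.773% to 5.6% of all genes were called in each direction. With Flag-OC2 in normoxia 1 was called higher, against 2.81% of all genes: GNAO1, a G protein subunit (log2 fold change 1.53, limma adjusted p = 0.0618). GNAO1 averaged 0.361 RPKM with empty vector and 1.27 RPKM with Flag-OC2 in that comparison. It reached 1 RPKM only with Flag-OC2, so it was tested only through libraries where it was high. In PC3 cells the single call was HERPUD1, an endoplasmic reticulum stress gene, higher with siOC2 in normoxia (1.48, limma adjusted p = 0.523), against 3.62% of all genes. With 7 genes, 0 or 1 call is near the share of all genes and says nothing particular about the neighbours. Their median interaction in LNCaP cells was 0.02, against 1.30 for the 4 metallothioneins and 0.06 for all genes.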

How the data were processed

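RNA-Seq of 16 libraries was used. ChIP-Seq, with 12 samples, is not analysed here. The authors aligned trimmed reads of stranded mRNA libraries to hg19 with STAR 2.4.2a and deposited RPKM per gene made by Cufflinks 2.1.1 with a GENCODE annotation of GRCh37. Groups were taken from the library labels. Read counts were not used, so precision rests on the spread between libraries, and relative depth was estimated from the steps between low values.

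In each line, a gene was fitted if 2 or more of its 8 libraries reached 1 RPKM, on log2(RPKM + 0.1) with limma 3.58.1 in R 4.3.3, with 4 groups and a mean-variance trend. Fold changes on this scale understate those of low genes. Each adjusted p is by Benjamini and Hochberg over the genes of that fit, and tests are 2-sided. An exact permutation test of 2 against 2 libraries cannot go below 0.333 and was not used. The fit and the depth estimate were tested on simulated data. With groups of 2, no test for single outlying libraries was possible.

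The members, the gene lists and the naming rule were chosen with earlier results of these data known. Named are all 9 members, MTF1, SLC30A1, NR3C1, CA9, ONECUT2, up to 4 called genes of each list with the largest fold change and the 3 genes most like the summed level, of which some items are not reported here. KLK2, VIM and CD44 were named after their values were seen. To see whether replicate numbers pair libraries, the departures of libraries from the mean of their group were correlated between groups. The correlations ran from -0.19, between the siCtrl groups, to 0.62, between the siOC2 groups, where the number is the siRNA. Pairing by number was thus not seen in all groups, and the main fit has no block. In the siOC2 groups it leaves the pairing by siRNA out. Alternatives tried a pseudocount of 1, a limit of 5 RPKM or none, upper-quartile scaling (75% quantile), adjusted p for calls, a fit of only the groups compared, a replicate block and leaving out each library. Coordinates, windows and transcripts come from GENCODE on GRCh37.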

Additional observations from a re-analysis of the deposited data

Results flagged for a closer look

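In LNCaP cells the interaction of hypoxia and Flag-OC2 was called for 3 metallothioneins, by fold and unadjusted P with limma. At an adjusted p under 0.05 it held for MT1G alone. The call of MT1X was lost without empty vector normoxia number 1 and without Flag-OC2 normoxia number 1. The log2 difference of the responses was 1.90 for MT1G (adjusted p = 0.0176), 1.51 for MT2A (adjusted p = 0.0560) and 1.08 for MT1X (adjusted p = 0.140). MT1G was lower in hypoxia with either vector, but less so with Flag-OC2, whereas MT2A was called lower with empty vector and stood at 0.50 with Flag-OC2, which was not called (limma adjusted p = 0.0568) and ran from 0.27 to 0.73 without 1 library at a time. No cause was tested.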

How the results depend on the processing

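Of the results for single members, 443 kept their direction and their side of the limits under an alternative, 9 lost a call, 11 gained one and 16 changed sign. The fits with no limit on low values and with a limit of 5 RPKM changed no call among those they could give, and neither did the fit of only the groups compared. With an adjusted p under 0.05 in the rule, the metallothionein calls fell to 0 for siOC2 in PC3 normoxia and to 1 for the LNCaP interaction. In LNCaP hypoxia the calls higher with Flag-OC2 went from 1 to 0 with a pseudocount of 1 and to 2 with upper-quartile scaling. That scaling moved the median of all genes by 0.13 in PC3 siOC2 hypoxia against normoxia and by 0.16 in the PC3 interaction, and by less than 0.1 elsewhere.

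The replicate block gave 1 metallothionein called lower in PC3 hypoxia with siOC2 (MT2A) and changed no other call. Same-numbered libraries deviated together in the siOC2 groups (0.62) but not in the siCtrl groups (-0.19). A block with the siCtrl numbers in normoxia swapped, added after seeing the data, also gave 1.

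Leaving out 1 library at a time, the counts called lower ran from 0 to 2 in PC3 hypoxia with siOC2, from 0 to 1 in the PC3 interaction and from 1 to 2 in LNCaP hypoxia with empty vector. Those called higher ran from 0 to 2 for siOC2 in PC3 normoxia, from 1 to 3 for Flag-OC2 in LNCaP hypoxia and from 2 to 4 in the LNCaP interaction. The sign changes fell on log2 fold changes that were not called. With siOC2 in PC3 normoxia MT2A ran from -0.69 (without siRNA1) to 1.14. With siOC2 in PC3 hypoxia MT1G ran from -0.11 to 0.11, MT1X from -0.44 to 0.29 and MT2A from -0.23 to 0.071. In PC3 hypoxia with siCtrl MT1G ran from -0.58 to 0.059 and MT1X from -0.19 to 0.38. In the PC3 interaction MT1F ran from -1.12 to 0.18 and MT2A from -1.22 to 0.61. In LNCaP hypoxia with Flag-OC2 MT1F ran from -0.27 to 0.38 (-0.00084 with upper-quartile scaling) and MT1X from -0.039 to 0.62. With Flag-OC2 in LNCaP normoxia MT1F ran from -0.071 to 0.58.

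The log2 difference of the summed level ran from -1.01 to -0.56 in PC3 hypoxia with siCtrl, from -1.99 to -0.20 with siOC2, from -0.67 to 1.12 for siOC2 in normoxia and from -1.19 to 0.61 in the PC3 interaction. In LNCaP cells it ran from -1.14 to -0.91 in hypoxia with empty vector, from 0.64 to 1.05 for Flag-OC2 in hypoxia and from 1.25 to 1.66 in the interaction. Without MT2A it was 0.0058 in PC3 hypoxia with siCtrl, 0.071 in LNCaP hypoxia with Flag-OC2 and 1.17 in the LNCaP interaction. The causes were not tested, except that dropping MT2A removes most of the sum by construction.

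With 2 libraries per group, the SE of 0.36 to 0.50 of single members in PC3 cells left differences near 2-fold hard to tell from the spread.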
